A study of Homo sapiens with 6 samples.

Results

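The genes described here encode brakes of the cell cycle, namely the CDK inhibitors other than CDKN2A, the CDK-binding phosphatase CDKN3, and the retinoblastoma (RB) family. They are CDKN1A, CDKN1B, CDKN1C, CDKN2B, CDKN2C, CDKN2D, CDKN3, RB1, RBL1 and RBL2, a list set by name and role. CDKN2A is not among them because it had no counts. These are 10 of the 56638 genes in the table of ChIP-seq counts, and 9 of them had counts. The cells were G401, a malignant rhabdoid tumor line deficient in SMARCB1, a core subunit of the SWI/SNF chromatin remodeling complex. The study asked how sensitive tumor cells respond when PRC2 is inhibited. All 6 libraries were made from this line after 3 days with DMSO, the solvent control, or with 3 µM MAK683. MAK683 binds the EED subunit of PRC2, Polycomb Repressive Complex 2, and blocks the methylation of histone H3 by this complex. Each treatment had 1 library of H3K27me3, 1 of H3K4me3 and 1 of input, which is chromatin sequenced without an antibody, so there is no replicate check and no p-value for any difference below.

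Progression from G1 into S phase depends on cyclin-dependent kinases (CDKs), which phosphorylate the RB proteins and thereby release the E2F transcription factors. CIP/KIP inhibitors bind cyclin and CDK complexes broadly, while INK4 inhibitors bind CDK4 and CDK6. H3K27me3, the product of PRC2, marks repressed genes and H3K4me3 marks promoters that are active or poised, and the INK4 locus on the short arm of chromosome 9 is a classical Polycomb target.

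Library totals were between 13308099 and 21281877 counts, and 3 counts, the smallest level taken as detectable, were worth between 0.141 and 0.225 CPM, the counts of a gene scaled to the library total. SMARCB1 had 0 input counts in both treatments, and between 0 and 4 in the libraries of the marks. The values were whole counts without the Drosophila spike-in scaling that the methods describe. A value is therefore a gene's portion of its own library, and a loss of a mark across the whole genome would not be seen in it. Each count covers a whole gene, so a narrow promoter signal is diluted in a long gene. Levels are given as the log2 ratio of the CPM of a mark to the CPM of input, and changes as the log2 ratio of CPM in MAK683 to CPM in DMSO, both with 0.05 CPM added. Genes needed at least 10 counts in 1 of the libraries compared, which 9 of the 10 genes reached in every comparison. Intervals are 95% exact Clopper-Pearson intervals of the share of counts, carried to the log2 scale, and cover counting error only. The methods describe depletion of repeat sequences with Picard. Any PCR copies that remain are not independent molecules, and the intervals do not cover this. On GRCh37, the genes not located later lie at chr12:12838432-12875303 (CDKN1B, plus strand), chr1:51426417-51440306 (CDKN2C, plus), chr19:10677136-10679735 (CDKN2D, minus), chr14:54863567-54886936 (CDKN3, plus), chr13:48877880-49173572 (RB1, plus), chr20:35624752-35724400 (RBL1, minus) and chr16:53467889-53525560 (RBL2, plus). A gene was called above, below, higher or lower when it was at least 1.5-fold away from equal CPM.

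In DMSO, 7 of the 9 genes were called above input in H3K4me3, against 30.6% of 30610 genes tested, and 0 were called below, against 38.1%. The CIP/KIP genes, CDKN2C and CDKN2D had higher H3K4me3 levels over input than CDKN3 and the RB family. CDKN1C, which encodes p57, had the highest log2 H3K4me3 over input, 5.69 with an interval from 5.09 to 6.52, and 68 genes of the table were higher. CDKN1B, which encodes p27, had a log2 H3K4me3 over input of 4.11, and CDKN1A, the p53 target that encodes p21, had 3.76. The intervals of these neighbors in the order overlapped. CDKN2D (p19) and CDKN2C (p18) had levels of 3.50 and 3.34 with overlapping intervals. The interval of CDKN2D also overlapped that of CDKN1A, and in MAK683 CDKN2D, at 3.43, was above CDKN1A, at 3.36, so these were not ordered. CDKN3 had 1.61 and RBL2 (p130) 0.84. RBL1 (p107) and RB1 were below input in H3K4me3, at -0.17 and -0.22, by less than 1.5-fold. Both of these intervals lay wholly below 0, as for 41.4% of all genes, but with median-of-ratios scaling, which sets the median gene near 0, both levels were above 0, at 0.10 and 0.053. The median over the 9 genes was 3.34, and that over all genes -0.27.

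The levels also went with gene length. Across the 9 genes, the Spearman rho between length and the level of H3K4me3 over input was -0.82 for DMSO and -0.83 for MAK683, whereas for H3K27me3 it was -0.017 and -0.18. These are descriptions over genes that share the same libraries. The shortest genes are CDKN1C (2.56 kb) and CDKN2D (2.60 kb), and the longest are RBL1 (99.6 kb) and RB1 (296 kb). At RB1 a neighboring gene covers the other side of the promoter. The divergent noncoding gene LINC00441 (RB1-DT) lies next to the start of RB1 on the other strand, and its log2 H3K4me3 over input was 1.88 with DMSO and 1.40 with MAK683. It had 463 H3K4me3 counts with 99 input counts in DMSO, and 302 with 113 in MAK683. In the GENCODE annotation, RB1 itself overlaps RCBTB2, LPAR6 and other genes, and only 51.5% of its span is unshared. CDKN1B overlaps GPR19 there and has 71.0% unshared, and the other genes with counts have at least 88.8%. RCBTB2 has 0.0% unshared in this annotation, yet had 920 H3K4me3 counts in DMSO, while LPAR6 had 0. The annotation used for counting is not known. The lengths, unshared percentages and values per kb given here may therefore not be those of the genes as counted.

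**Figure D1:**
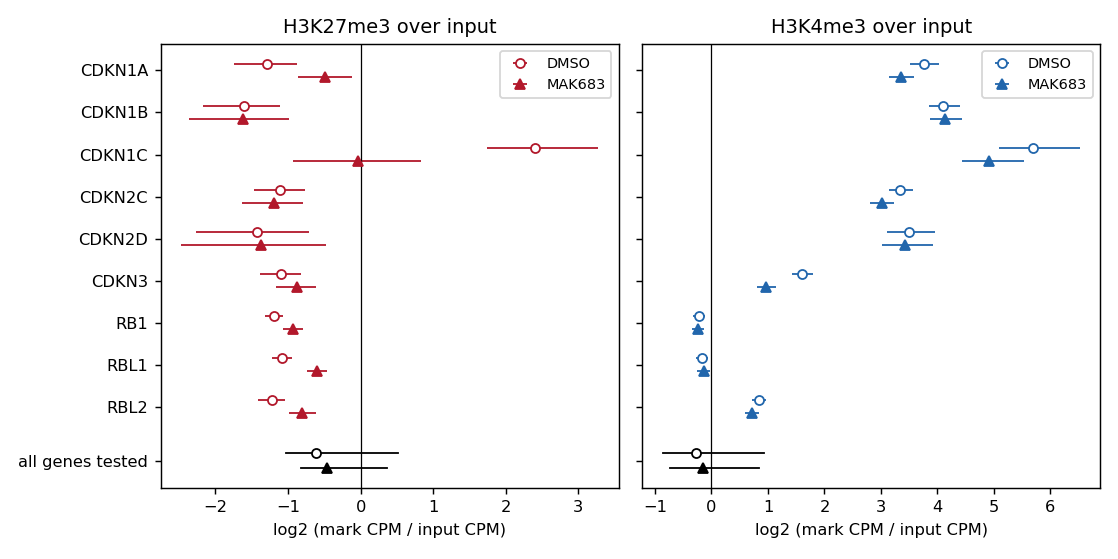
Log2 ratio of mark CPM to input CPM for the 9 genes with counts in H3K27me3 (left) and H3K4me3 (right), 1 library per point, with 95% counting intervals. Open circles are DMSO and filled triangles MAK683, and the black symbols at the bottom are the median of all genes tested with bars from the lower to the upper quartile. In H3K27me3, CDKN1C lies at 2.41 in DMSO and at -0.03 in MAK683, while the other genes lie below 0 in both.

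H3K27me3 separated CDKN1C from all others in DMSO. CDKN1C was the 1 member called above input, against 23.8% of 31031 genes tested, and the other 8 genes with counts were called below input, against 51.0%. With median-of-ratios scaling 4 of them were called below, against 13.3% of all genes, and CDKN1C was still called above. The log2 H3K27me3 over input was 2.41 at CDKN1C, with an interval from 1.74 to 3.27, and 521 genes of the table were higher. The other 8 genes lay between -1.61 at CDKN1B and -1.08 at RBL1, with every interval below 0, as for 52.2% of all genes. All 8 of these intervals overlapped, so the order of the levels within that range was not resolved at this depth. The median over the 9 genes was -1.19, and that over all genes -0.61. Among 8549 genes called above input in H3K4me3 in DMSO, the median was -0.95 and 88.2% lay below 0. A level below input was thus usual for genes with H3K4me3. Per kb of gene span not shared with another gene, the level of H3K27me3 at CDKN1C was 2.30 CPM, against 0.428 CPM for the median of 14447 genes. The other members had between 0.0838 and 0.421 CPM per kb. The lowest of these, CDKN1B, also had only 0.259 CPM of input per kb, against 0.752 for the median gene, so its level per kb is uncertain.

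CDKN1C is an imprinted gene on chromosome 11 (chr11:2904443-2907005, minus strand, GRCh37), expressed mainly from the maternal copy and known for its loss in Beckwith-Wiedemann syndrome. H3K27me3 counts at CDKN1C numbered 113 in DMSO and 20 after MAK683. Its input counts were 18 and 30, and its H3K4me3 counts were 1230 and 934. H3K27me3 counts were thus high in DMSO and near the input counts in MAK683, and the input was low in both treatments. H3K27me3 at CDKN1C was 3.83-fold lower in CPM after MAK683, a log2 change of -1.94 with an interval from -2.74 to -1.28. Of all its H3K27me3 counts 15.0% were in MAK683 (interval 9.43% to 22.3%), against 41.0% for the library as a whole, and 170 of 29931 genes had a lower change. In MAK683 the log2 H3K27me3 over input was -0.03, with an interval from -0.93 to 0.83, so H3K27me3 and input could not be told apart at this depth. H3K4me3 over input remained high, at 5.69 in DMSO and 4.91 in MAK683, and H3K4me3 itself changed by -0.28. CDKN1C was the only member with both marks called above input in DMSO, a class that held 742 of 29607 genes (2.51%). Over the class the median H3K27me3 change was -0.33, and 200 of the 742 genes were called lower, against 7.76% of all genes. The median H3K4me3 change of the class was 0.10. The class was chosen on the DMSO libraries, which also enter both changes and by themselves favor changes below 0.

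The neighborhood of CDKN1C was read because of this value, so the following genes were chosen after their values were seen. Within 200 kb lay 8 other genes with enough counts, and among them only PHLDA2 was above input in H3K27me3. PHLDA2, an imprinted growth-restraining gene, starts 43.6 kb from the start of CDKN1C. H3K27me3 counts at PHLDA2 numbered 89 in DMSO and 14 after MAK683, with 12 and 21 input counts. The log2 level over input was 2.62 and then -0.03, and the change was -2.09 with an interval from -3.07 to -1.32. H3K4me3 counts there numbered 142 and 176. The 7 other genes, which include KCNQ1 and the genes between CDKN1C and PHLDA2, had H3K27me3 levels from -1.33 to -0.11 on the log2 scale over input. The pair of genes with a high level was thus separated by genes below input, where the median of all genes, -0.61, also lay.

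**Figure D2:**
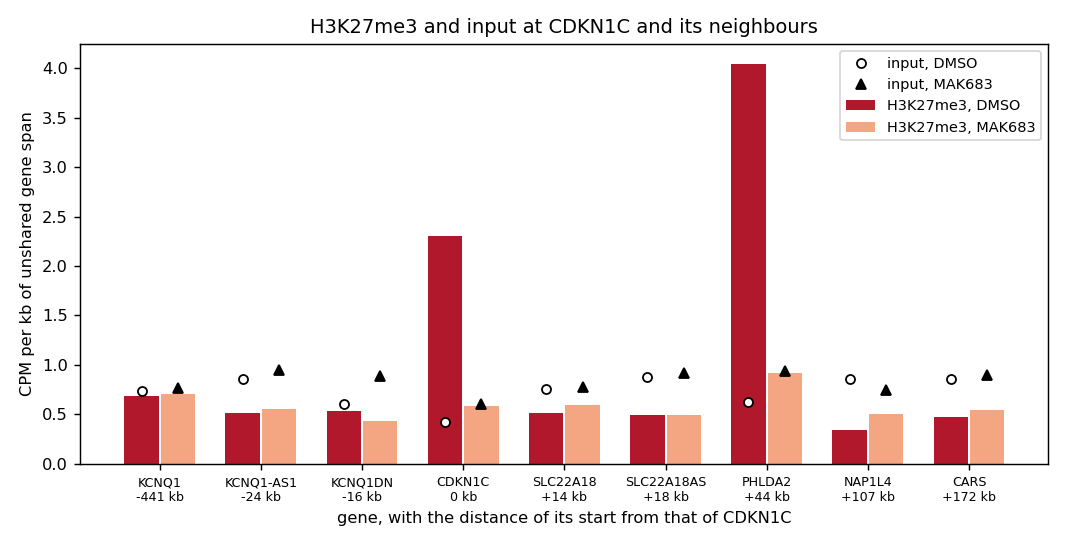
H3K27me3 CPM per kb of unshared gene span (bars, dark for DMSO and light for MAK683) and input CPM per kb (circles for DMSO, triangles for MAK683) at CDKN1C and the 8 flanking genes, 1 library each, with the distance of each start from that of CDKN1C in kb. CDKN1C and PHLDA2 stand above their input in DMSO only.

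The change of H3K27me3 differed between members. In MAK683 against DMSO, 1 of 9 genes was called higher, against 11.4% of 29931 genes tested, and 1 was called lower, against 7.76%. Over the 9 genes the median change was 0.17, and over all genes 0.079. With the counts as deposited, in which the smaller MAK683 library is not adjusted, 0 were higher and 4 were lower (CDKN1B, CDKN1C, CDKN2C and CDKN2D), against 3.28% and 36.4% of all genes, and the median of all genes was -0.44. The gene called lower was CDKN1C, and its change was negative under every alternative that could alter it, from -2.44 to -1.46. Other thresholds and filters leave such a value as it is.

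The gene called higher was CDKN1A (chr6:36644237-36655114, plus strand), an effector of p53-dependent arrest. Its H3K27me3 counts were 65 in DMSO and 90 after MAK683, with 141 and 185 input counts. The MAK683 library was the smaller one and still held more CDKN1A counts, but without spike-in scaling this is a portion of a library. The study reported a massive depletion of H3K27me3 over the genome after MAK683, so a higher portion does not by itself show more mark. The change was 0.99, or 1.98-fold, with an interval from 0.52 to 1.48, and 58.1% of the counts were in MAK683 (49.9% to 65.9%). The change kept its sign under every alternative that could alter it, from 0.46 with the counts as deposited to 1.20. H3K27me3 at CDKN1A nevertheless stayed below input, at -1.29 in DMSO and -0.48 in MAK683 on the log2 scale. Of 14551 genes called below input in DMSO, 82.5% had a change over 0, with a median of 0.25. That class was chosen on the DMSO library, which also enters the change.

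CDKN3, which dephosphorylates CDKs, and the RB family had smaller changes. CDKN3 had 155 H3K27me3 counts with DMSO and 153 with MAK683, a change of 0.50. Its input was also higher in MAK683, by 0.29 with an interval from 0.071 to 0.51 that lay above 0, as for 9.44% of all genes. Divided by input, the H3K27me3 change of CDKN3 was 0.21. RBL1 had 670 and 629 H3K27me3 counts, a change of 0.43 with an interval from 0.28 to 0.59. RBL2 had 360 and 330, a change of 0.40, and RB1 had 752 and 589, a change of 0.17 with an interval from 0.015 to 0.33. The intervals of CDKN1A, CDKN3, RB1, RBL1 and RBL2 lay wholly above 0, which is 5 of 9 genes against 22.7% of all genes. With the counts as deposited, the changes of CDKN3, RB1, RBL1 and RBL2 were below 0, so their direction rests on the division by library totals.

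CDKN1B, CDKN2C and CDKN2D had negative changes of H3K27me3 whose intervals included 0. CDKN1B had 42 counts in DMSO and 23 in MAK683, a change of -0.33 with an interval from -1.14 to 0.42. CDKN2C had 102 and 63, a change of -0.17 (-0.65 to 0.30). CDKN2D had 21 and 12, a change of -0.27 (-1.44 to 0.81). A change of either sign was therefore not detectable at these 3 genes. In MAK683, H3K27me3 was called below input at 7 of 9 genes, against 43.7% of 30959 genes, and above input at 0, against 20.0%. With median-of-ratios scaling 3 were called below, against 12.0%. The exceptions in CPM were CDKN1A and CDKN1C, which were less than 1.5-fold below input.

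**Figure D3:**
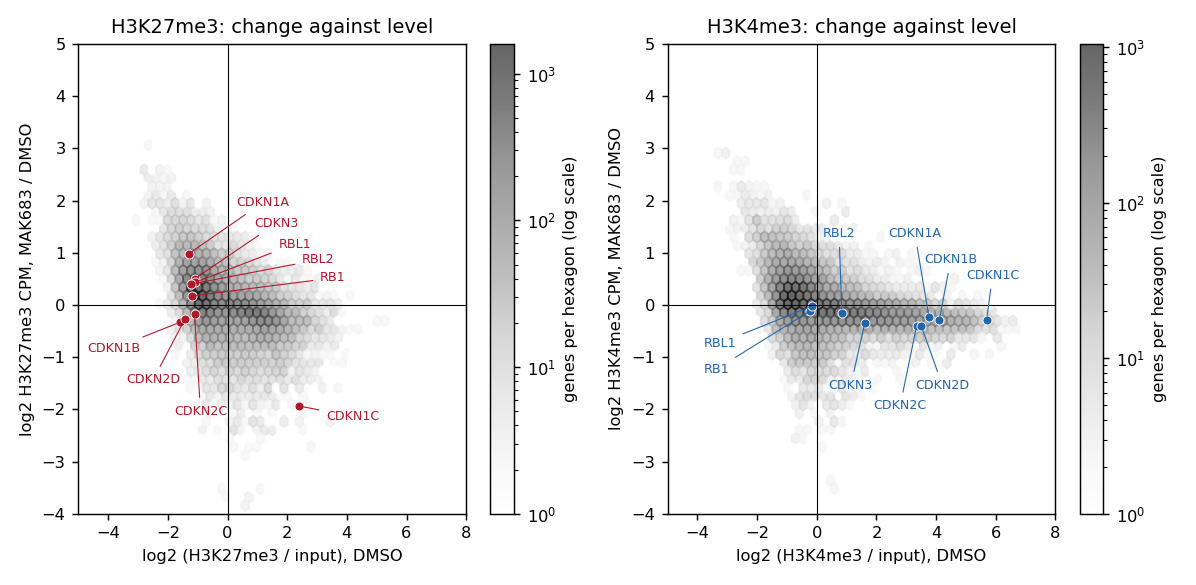
Log2 change of CPM between MAK683 and DMSO (vertical) against the log2 ratio of mark to input in DMSO (horizontal) for H3K27me3 (left) and H3K4me3 (right), with the 9 genes as colored points over hexagons shaded by the number of genes. The DMSO library of the mark enters both axes, which by itself tilts the cloud downward. CDKN1C lies at the lower right in H3K27me3, at a change of -1.94, and all 9 genes lie below 0 in H3K4me3.

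H3K4me3 was lower in MAK683 at all 9 genes in CPM, against 49.6% of 30028 genes, and at 0 of them by 1.5-fold. At this threshold 4.98% of all genes were lower and 9.94% were higher. The changes ran from -0.41 at CDKN2C to -0.024 at RBL1, with a median of -0.28 against 0.0032 over all genes. The intervals of 8 genes lay wholly below 0, against 21.3% of all genes, and that of RBL1 crossed 0. Divided by input, CDKN1C (-0.78) and CDKN3 (-0.64) were called lower, 2 of 9 genes against 10.2% of all genes. On that scale the changes of CDKN1B and RBL1 were slightly above 0 and those of the other 5 stayed below 0. CDKN2C had 2499 H3K4me3 counts with DMSO and 1734 with MAK683, and CDKN2D had 741 and 518, a change of -0.40. CDKN1B had 2497 and 1883, a change of -0.29, and CDKN1A had 2426 and 1913, a change of -0.23. The INK4 genes thus had the most negative changes in CPM. Their intervals overlapped those of CDKN1B, CDKN1C and CDKN3, so this order was not resolved. It also did not hold when divided by input, where CDKN2C was at -0.33 and CDKN2D at -0.074. CDKN3 had 1128 and 817 counts, a change of -0.35. The RB family had the smallest changes in CPM, with 1638 and 1398 counts at RB1, 1405 and 1274 at RBL1, and 1672 and 1394 at RBL2.

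The shift was shared by other genes with H3K4me3. Of the 9356 genes called above input in H3K4me3 in DMSO, 83.1% had a change below 0, with a median of -0.18. This class was chosen on the DMSO library, which also enters the change and by itself favors changes below 0. Taken relative to the median of this class, the changes of CDKN1A, CDKN1B, CDKN1C, CDKN2C, CDKN2D and CDKN3 were still below 0, and those of RB1, RBL1 and RBL2 were above 0. In MAK683, H3K4me3 was called above input at 7 of 9 genes, against 29.7% of 31257 genes, and called below at 0, against 32.0%. The median level was 3.01, against -0.15 over all genes. CDKN3 was the only one of the 9 whose intervals of H3K4me3 over input did not overlap between treatments, with 1.61 (1.43 to 1.80) in DMSO and 0.97 (0.80 to 1.15) in MAK683. It had higher input and fewer H3K4me3 counts in MAK683. Input CPM itself changed by between -0.32 and 0.50 at the 9 genes, with 0 of 9 past 1.5-fold, against 8.16% higher and 5.55% lower over 30999 genes.

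**Figure D4:**
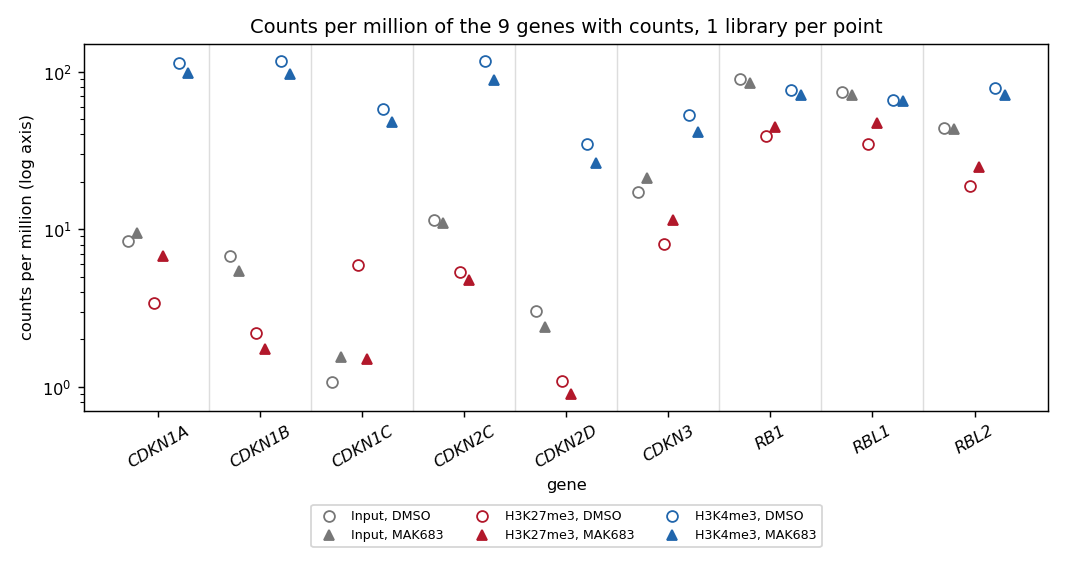
CPM of the 9 genes with counts in each of the 6 libraries on a log axis, 1 library per point, with open circles for DMSO and filled triangles for MAK683. H3K4me3 (blue) is lower in MAK683 at all 9 genes, H3K27me3 (red) exceeds input (gray) at CDKN1C in DMSO only, and H3K27me3 is higher in MAK683 at CDKN1A, CDKN3, RB1, RBL1 and RBL2.

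The promoters of RB1 and RBL1 are shown because they are the only members whose windows held E2F letters, and RB and p107 bind E2F factors. The letters searched were TTTCCCGC, TTTCGCGC, TTTGCCGC and TTTGGCGC on both strands, and matches are in capitals. Each line gives the 250 bases before the start of the gene on GRCh37, 5′ to 3′ on the strand of the gene.
RB1 (chr13:48877637-48877886, plus strand): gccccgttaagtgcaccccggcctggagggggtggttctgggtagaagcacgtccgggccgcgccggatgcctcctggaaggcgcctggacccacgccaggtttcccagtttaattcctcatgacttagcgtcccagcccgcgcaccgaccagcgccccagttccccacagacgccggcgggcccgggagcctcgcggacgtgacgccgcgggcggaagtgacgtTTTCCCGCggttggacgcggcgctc
RBL1 (chr20:35724401-35724650, minus strand): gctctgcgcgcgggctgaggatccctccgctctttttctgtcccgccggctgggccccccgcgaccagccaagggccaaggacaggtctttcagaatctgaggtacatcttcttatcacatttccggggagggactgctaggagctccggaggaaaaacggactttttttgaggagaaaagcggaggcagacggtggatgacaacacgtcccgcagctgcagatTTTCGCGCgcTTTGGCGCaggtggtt
RB1 had 1 match, at -25 to -18 from the start, and RBL1 had 2, at -26 to -19 and -16 to -9, while 3.77% of 19862 promoters held at least 1. The RBL2 window held none of these letters. TTTGAA, the letters of the cell cycle homology region, was found on either strand in the CDKN3 window alone among the 10 members, and in 10.1% of all promoters. RB1 and RBL1 had nearly the same levels in DMSO, with log2 H3K27me3 over input of -1.19 and -1.08. Members without E2F letters had similar levels, with -1.22 at RBL2, -1.11 at CDKN2C and -1.10 at CDKN3. CDKN1A, CDKN1B and CDKN2D were lower and CDKN1C was higher.

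CDKN2B, which encodes p15, could not be measured. It had 0 counts in all 6 libraries, and so did CDKN2A. The span of CDKN2B (chr9:22002902-22009304, minus strand) lies wholly within the antisense gene CDKN2B-AS1, and CDKN2A likewise has no span of its own. From the counts of these genes alone, a lack of reads and reads left unassigned in a shared span cannot be told apart. At CDKN2A the study showed ChIP-seq tracks of both marks in G401. It also reported high H3K27me3 at the CDKN2A promoter by ChIP-qPCR, which fell strongly with MAK683, while H3K4me3 there rose. CDKN2A mRNA and p16 protein were reported as higher after MAK683. The values of CDKN2B-AS1 that follow are portions of libraries over a whole gene, a measure unlike the promoter assay. CDKN2B-AS1 was called above input in H3K27me3 in DMSO, at 0.64 on the log2 scale, with 2100 H3K27me3 and 1180 input counts. In MAK683 it had 1277 and 1290, a level of 0.54 over input and a change of -0.19 with an interval from -0.29 to -0.09. H3K4me3 at CDKN2B-AS1 had 630 counts in DMSO and 784 in MAK683, a change of 0.43. MTAP, the next gene on the far side of CDKN2A, had 21 H3K4me3 counts with DMSO and 19 with MAK683, against 1 and 0 input counts, and it has no span of its own in the annotation.

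The partners of these brakes were read from a list of 34 genes, made of cyclins, CDKs, E2F and DP factors, DREAM subunits, p53 axis genes and others that act with them, of which 31 had enough counts. H3K27me3 in DMSO was called above input at 1 of the 31 genes and below at 27, against 23.8% and 51.0% of all genes, with a median of -1.04 over input against -0.61. The gene above was CCNA1, a cyclin of the germ line, with 549 H3K27me3 and 155 input counts in DMSO and 368 and 148 in MAK683. Relative to input its level was 1.63 and then 1.86, whereas that of CDKN1C was 2.41 and -0.03. The H3K27me3 CPM of CCNA1 itself changed by -0.051, and its input by -0.28, so the higher level over input was not a gain in H3K27me3 CPM. H3K4me3 at CCNA1 had 164 counts in DMSO and 343 in MAK683, a change of 1.18.

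In H3K27me3, 4 of the 31 genes were called higher in MAK683 and 0 lower, against 11.4% and 7.76% of all genes, with a median change of 0.15 against 0.079. The share called higher was near that of all genes. The 4 genes were CCNE2 (0.97), CDK1 (0.82), E2F5 (0.76) and E2F4 (0.67), and like CDKN1A all were below input in DMSO, between -1.64 and -1.31. In H3K4me3, 2 were called higher, CCNA1 and CCND2 (0.64), and 0 lower, against 9.94% and 4.98% of all genes, with a median change of -0.15 against 0.0032. CCND2 shares its whole span with other genes in the annotation, so its counts are uncertain. CDK2, E2F8 and LIN37 had 0 counts in all libraries and also share their whole spans. The median H3K4me3 change of the 9 brake genes, -0.28, was below that of the list, and the 2 medians come from the same libraries.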

How the data were processed

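H3K27me3, H3K4me3 and input ChIP-seq of G401 cells was compared between DMSO and MAK683, with 1 library per antibody and treatment. After trimming, the authors mapped the reads to hg19 (Bowtie2), depleted repeat sequences with Picard and deposited whole-number counts per gene from featureCounts, not scaled by spike-in. The submitters' processing notes give Trim Galore 0.4.4 and Picard 2.23.6. The annotation used for counting is not given in the sources used here. Counts were divided by library totals (13308099 to 21281877) to give CPM, and log2 ratios used 0.05 CPM, a minimum of 10 counts in either library, and a 1.5-fold threshold. Exact Clopper-Pearson intervals (95%) cover counting error only, so no test between treatments was made. Of 56638 gene names, 33522 matched GENCODE release 44 on GRCh37 by symbol and 1794 by an older symbol (62.4% in all). Promoters are the 250 bases before the canonical start. The script was tested on simulated data.

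Named genes were the 10 members, neighbors on the short arm of chromosome 9, genes overlapping a member or starting within 1 kb of its start, pathway genes at least 1.5-fold changed in either mark with up to 3 others per list, and the 3 genes nearest to CDKN1C over the 4 ratios to input, of which 1 is not reported here. The members and lists were chosen with earlier results of these data known. PHLDA2 and other genes near CDKN1C were chosen after their values were seen. Alternatives were counts as deposited, TMM factors (edgeR 4.0.16), median-of-ratios factors (DESeq2 1.42.0), and other reference genes, pseudocounts, thresholds and filters. Python 3.11.15, numpy 2.4.6, scipy 1.17.1, pandas 2.3.3, matplotlib 3.10.9 and R 4.3.3 were used.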

Additional observations from a re-analysis of the deposited data

How the results depend on the processing

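No value of a called gene changed sign. Of 438 values of single members under the alternatives, 372 stayed within the counting interval and 66 moved beyond it. Other thresholds and filters leave a single member's value as it is, so those values are among the 372 by construction. No paired analysis was possible because each treatment had 1 library per antibody. For the H3K27me3 change, counts as deposited gave a median of -0.35, with 0 genes higher and 4 lower, against 3.28% and 36.4% of all genes. The lowest fold threshold tried gave 4 higher and 2 lower, against 25.7% and 15.3% of all genes, and 2-fold gave 0 higher, against 3.87%. At least 100 counts in both inputs together, which leaves out CDKN1C and CDKN2D, gave a median of 0.40 and 0 lower. Both reference-gene scales were added after seeing the data. Relative to genes above input in DMSO, the H3K27me3 median was 0.39 with 4 higher, against 21.9% of all genes. Relative to genes below input that median was -0.073 and RB1 fell below 0. For the H3K4me3 change, division by input gave a median of -0.13 with 2 lower, against 10.2% of all genes. The lowest threshold gave 3 lower, against 13.2%. The added scales gave medians of -0.098 (genes above input) and -0.46 (genes below input), the latter with 1 lower, against 9.22%. For levels over input in DMSO, median-of-ratios gave a median of -0.57 with 4 below for H3K27me3, against 13.3% of all genes. For H3K4me3 it gave a median of 3.61. The input filter gave 0 above for H3K27me3, against 18.4%, and a median of 1.61 for H3K4me3. In MAK683, median-of-ratios gave a median of -0.42 with 3 below for H3K27me3, 2-fold gave 3 below, and the input filter gave a median of 0.97 for H3K4me3. These factors set the median gene near 0. Depth limits CDKN1C input (18 and 30 counts) and CDKN2D H3K27me3 (21 and 12 counts).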

Other observations

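A minimum of 100 input counts, summed over both inputs, left 21263 genes, and ZNF703 and RP11-439L18.2 were the nearest of them to CDKN1C in the levels of both marks over input in both treatments. The measure was the Euclidean distance over the 4 log2 ratios, and the distances were 1.69 and 2.04. ZNF703, a zinc finger gene, had 85 H3K27me3 counts with DMSO and 46 with MAK683, and 41 and 76 input counts. Relative to input its log2 level was 0.85 and -0.17 in H3K27me3, and 5.30 and 4.38 in H3K4me3. RP11-439L18.2, known only by a clone name, had log2 H3K27me3 over input of 1.52 in DMSO and 0.28 in MAK683. CDKN1C itself, at 2.41 and -0.03, had a larger difference in H3K27me3 between treatments than either of these genes, and its input was below the minimum set for them.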
